A study of Daphnia magna with 12 samples.

Results

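In the water flea Daphnia magna, sampled as whole animals, 186 genes had transcript levels displaced in the same direction after exposure to each of 3 organic chloride salts, out of 12752 genes with a control median of at least 2 CPM and 46334 gene rows in all. CPM is the read count of a gene scaled to a common library total, here with TMM factors. A gene was taken into the falling set when its median after every salt was at most 0.5 of the control median, and into the rising set when every median was at least 1.5 times the control median, with 0.1 CPM added to each median. The falling set held 116 genes and the rising set 70. The members were thus chosen by their measured group medians, so the differences from control are given as a description, and the tests of those contrasts further on are counted without being read as evidence.

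The 12 libraries form 4 groups of 3. C2mimCl is 1-ethyl-3-methylimidazolium chloride, C12mimCl has a dodecyl chain in place of the ethyl chain on the same methylimidazolium ring, CholCl is cholinium chloride, and the controls were kept in ASTM medium alone. Neonates of brood 3, less than 10 h old and drawn from bulk cultures, were exposed for 48 h without food in 12 vessels of 120 animals in 500 mL, each salt at its EC20, the level producing 20% of an effect. Active animals were then pooled, 90 per vessel, so each library stands for 1 vessel and for animals still active after exposure. No source used here gives the molar concentrations or the endpoint of the EC20. The comparison between salts is therefore one at a matched effect level, at concentrations that may differ.

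Imidazolium ions with a long alkyl chain are surfactants that insert into lipid membranes, whereas those with a short chain are far less surface-active. Cholinium is the cation of choline, a precursor of the membrane lipid phosphatidylcholine and of the transmitter acetylcholine. In a whole-body pool of animals the level of a transcript sums over every tissue, and fewer cells of a type cannot be told apart from less RNA per cell.

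The files give genes by number and pair none with a name, and 0 of the identifiers matched the reference table of 28335 genes. No role is therefore assigned to any gene. In each set the gene with the highest control median and the gene with the largest change after the salt that moved it least are given by identifier, and other genes by their place in these orders. CPM is not divided by gene length, so the order by control median is one of read shares and not of transcript numbers.

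Libraries held 12502019 to 15539051 reads in genes. Among the exposed libraries C2mimCl replicate 1 lay nearest to control in both sets. Its median log2 ratio to the control median over the falling set was -0.98, against -1.86 and -1.87 in C2mimCl replicates 2 and 3. Among the controls, replicate 3 lay nearest to the exposed libraries, with a median log2 ratio of -0.28 over the falling set and 0.32 over the rising set. Reads assigned to no gene were 7.62% of C2mimCl replicate 1 and 5.84% and 6.14% of the other C2mimCl libraries. They were 6.32% of control replicate 3, and 7.87% and 8.39% of the other controls. Such reads were 9.83%, 10.08% and 8.11% after C12mimCl and 5.83%, 5.51% and 5.25% after CholCl. The part of this share in the membership was not tested. Every C12mimCl library lay above every C2mimCl and CholCl library in this share. Every CholCl library lay below every control and, with 5.83% against 5.84% for the closest, below every C2mimCl library. The part of this share and that of C12mimCl or CholCl therefore cannot be cleanly told apart in a fit that includes it.

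**Figure D1:**
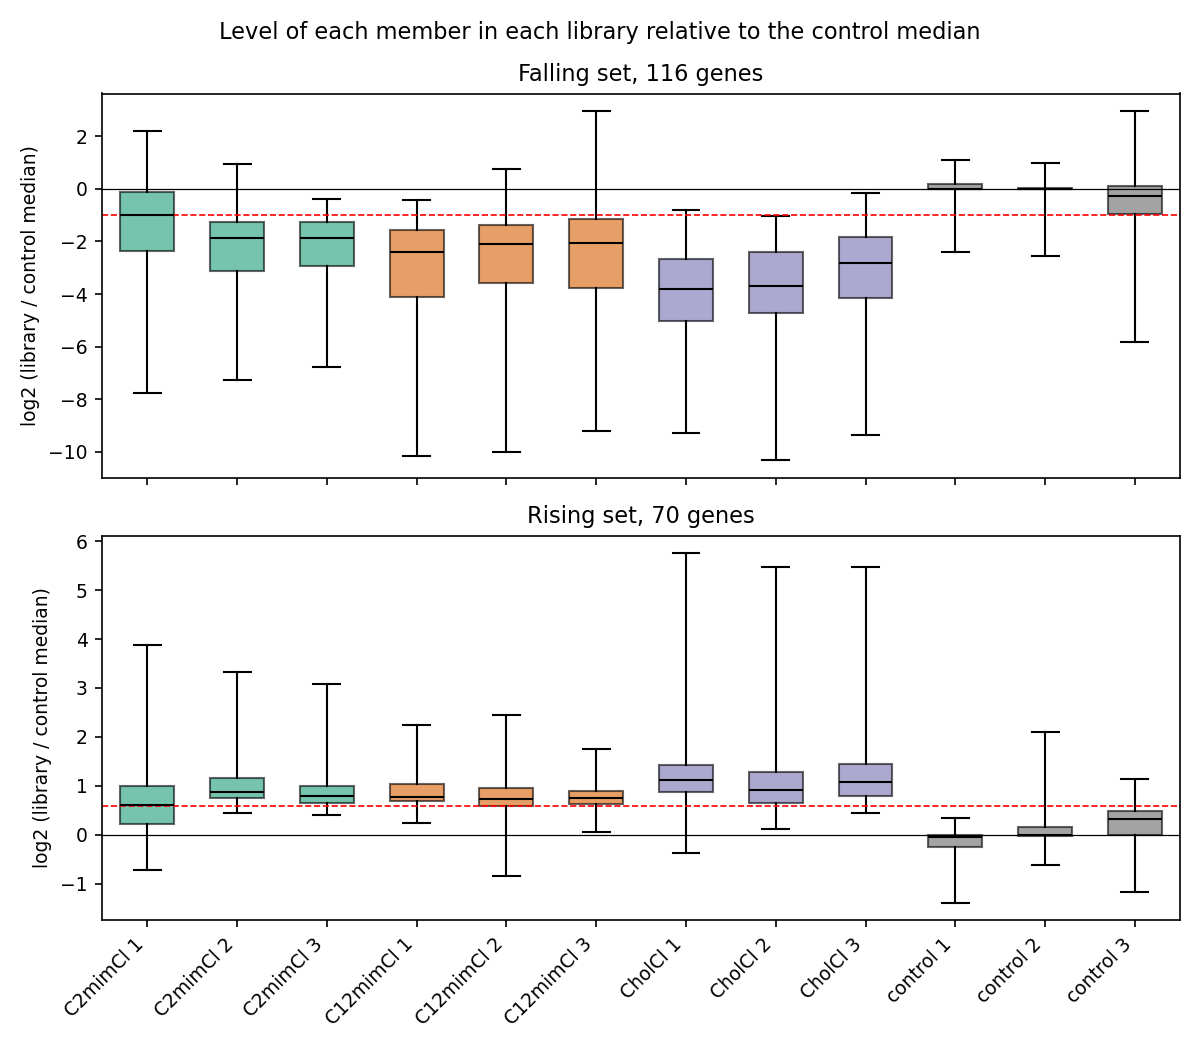
Distribution over the members of the log2 ratio of each library to the gene's control median, for the falling set (top, 116 genes) and the rising set (bottom, 70 genes). Boxes span the quartiles with the median as a line, whiskers reach the extremes, the dashed red line is the membership threshold, and the median of C2mimCl replicate 1 lies at -0.98 in the falling set, nearer to 0 than those of the other exposed libraries.

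Falling genes were most reduced after CholCl. The median member was 3.59-fold lower than control after C2mimCl, 4.77-fold lower after C12mimCl and 11.4-fold lower after CholCl, where the median ratio over all genes with a control median of at least 2 CPM was 0.992, 0.974 and 0.908. The lower quartile of that ratio over all such genes was 0.776, 0.635 and 0.534 in the same order of salts. The order of the salts is thus not particular to the falling set. A median at least 8-fold below control was reached by 26 members after C2mimCl, 37 after C12mimCl and 74 after CholCl, and by 11 after each of the 3 salts. CholCl gave the lowest median in 76 of the 116 genes, C12mimCl in 31 and C2mimCl in 9. For 36 genes the fall deepened from C2mimCl through C12mimCl to CholCl.

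Together the falling genes took 0.442% ± 0.158 of gene reads after C2mimCl, 0.223% ± 0.0503 after C12mimCl and 0.115% ± 0.03 after CholCl, against 1.15% ± 0.161 in controls (SD, n = 3 each). The single libraries held 0.624%, 0.364% and 0.338% after C2mimCl, 0.176%, 0.276% and 0.216% after C12mimCl, and 0.082%, 0.124% and 0.14% after CholCl, against 1.33%, 1.03% and 1.08% in controls. The exposed libraries lay below the controls throughout. The choice of genes by group medians favours this, without fixing it for the summed share of a single library. The 5 members with the highest control medians made up 32.2% to 61.2% of the summed CPM of the set in the 12 libraries, so the sum is weighted towards a few genes.

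Members with high control levels were displaced more by C12mimCl and CholCl. Of the 116 genes, 33 had a control median under 10 CPM, 59 between 10 and 100 CPM and 24 at 100 CPM or more, or 28.4%, 50.9% and 20.7%, where the shares over all genes with at least 2 CPM were 32.5%, 54.8% and 12.7%. The 24 genes in the top class had median falls of 3.18-fold after C2mimCl, 15.4-fold after C12mimCl and 25.7-fold after CholCl. The 33 genes in the bottom class had 3.63-fold, 3.45-fold and 7.3-fold. The added 0.1 CPM limits the fold that a gene of low level can reach, and its part in this contrast was not tested.

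C2mimCl was the weakest salt for 58 falling genes, whose median falls were 2.55-fold after C2mimCl, 13.3-fold after C12mimCl and 15.5-fold after CholCl. C12mimCl was the weakest for 44 genes, at 6.06-fold after C2mimCl, 2.99-fold after C12mimCl and 11.4-fold after CholCl. CholCl was the weakest for 14 genes, at 4.09-fold, 4.58-fold and 2.43-fold in the same order of salts. Sorting by the weakest salt fixes which of the 3 values is the smallest. The highest and lowest salt medians lay within 2-fold of each other in 28 of the 116 genes and more than 8-fold apart in 31.

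**Figure D2:**
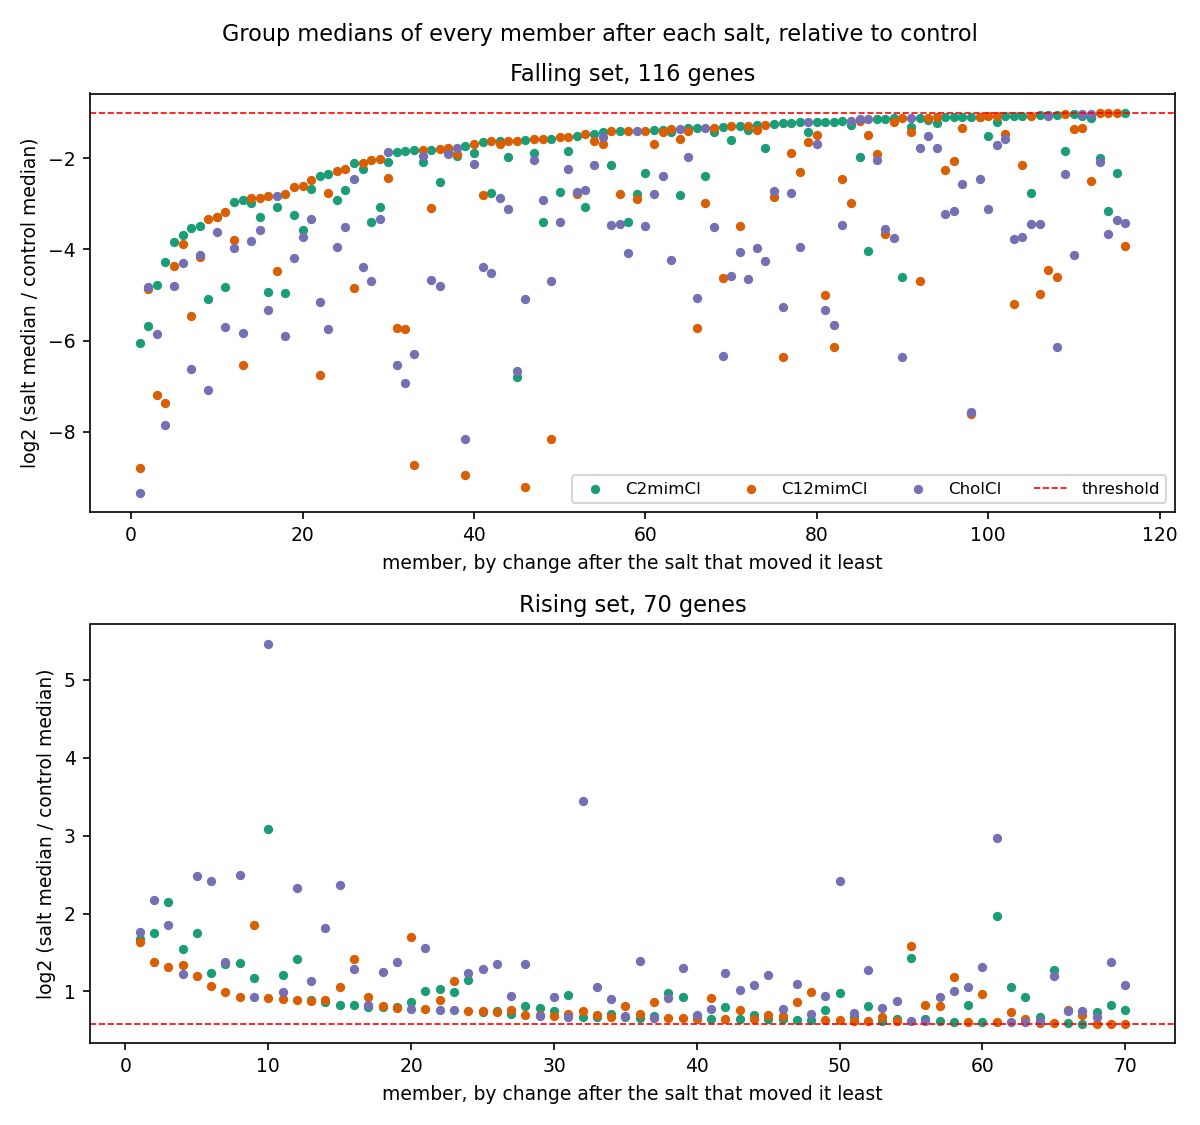
Group medians of every member after C2mimCl, C12mimCl and CholCl as a log2 ratio to the control median, with 0.1 CPM added to each, for the falling set (top) and rising set (bottom). Genes run along the x axis by their change after the salt that moved them least, the dashed line is the threshold, and the 3 salt medians lie within 2-fold of each other for 28 of 116 falling genes and 61 of 70 rising genes.

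Dapma7bEVm010872 had the largest fall after its weakest salt. It had 97.0, 7.11 and 5.82 CPM after C2mimCl, 0.315, 0.983 and 6.23 CPM after C12mimCl and 0.665, 0.275 and 0.639 CPM after CholCl, against 567, 478 and 210.4 CPM in controls. Every exposed library lay below every control, and the library nearest to the controls was C2mimCl replicate 1. Its median ratio to control was 0.0151 after C2mimCl, 0.00227 after C12mimCl and 0.00155 after CholCl. The log2 ratio after C2mimCl was -6.05, and it was -3.21 and -3.18 without C2mimCl replicates 2 and 3 and -3.51 when group means replaced medians.

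Dapma7bEVm010107 had the highest control median of the falling set. It had 285, 1620 and 1375 CPM after C2mimCl, 239.5, 275.5 and 222 CPM after C12mimCl and 139, 329 and 258 CPM after CholCl, against 3029, 509.7 and 4238 CPM in controls. The C12mimCl and CholCl libraries lay below all controls, whereas 2 of the C2mimCl libraries lay above control replicate 2. Its median ratio to control was 0.454 after C2mimCl, 0.0791 after C12mimCl and 0.0852 after CholCl. The log2 ratio after C2mimCl was -1.14. Leaving out control replicate 3 or 1 gave -0.36 or -0.79, outside the rule, and it was -1.87 and -1.71 without C2mimCl replicates 2 and 3. C12mimCl lay below C2mimCl by a log2 difference of -2.14 (SE 0.761, adjusted p = 0.043, edgeR). That call was lost in 12 of 20 alternatives, among them the omission of C2mimCl replicate 2 or 3, of any C12mimCl library, of CholCl replicate 2 or 3 or of control replicate 1 (adjusted p 0.052 to 0.12, edgeR), and the sign turned to 0.49 (adjusted p = 0.81) when the percentage of reads in no gene entered the fit. CholCl differed from C12mimCl by -0.02 with a 95% interval of -1.64 to 1.61.

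The next gene by control median showed a separation by salt. It had 350, 321 and 214 CPM after C2mimCl, 1.64, 2.34 and 2.05 CPM after C12mimCl and 3.62, 3.58 and 4.87 CPM after CholCl, against 1397, 1062 and 526.5 CPM in controls. No group overlapped another. The log2 difference was -7.17 (SE 0.419, adjusted p = 9.3e-06) for C12mimCl against C2mimCl, -6.17 (SE 0.398, adjusted p = 2.3e-05) for CholCl against C2mimCl and 1.00 (SE 0.349, adjusted p = 0.03) for CholCl against C12mimCl in the edgeR fit. The last call was lost without C12mimCl replicate 1 or 3 or CholCl replicate 3 (adjusted p 0.067 to 0.1, edgeR), with limma-voom (0.15) and with the percentage of reads in no gene in the fit (0.053). The third gene by control median had 1192, 65.2 and 57.9 CPM after C2mimCl, 231, 746 and 179 CPM after C12mimCl and 131, 83.5 and 90.8 CPM after CholCl, against 691, 720 and 328 CPM in controls. Single libraries of C2mimCl and C12mimCl lay above all its controls, and its place in the set rests on the other libraries of each group.

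Some falling transcripts came close to the limit of detection. The gene with the second largest fall after its weakest salt had 0, 0 and 1 read after C2mimCl, 9, 1 and 1 after C12mimCl and 2, 1 and 1 after CholCl, against 82, 76 and 28 reads in controls. The third had 104, 5 and 10 reads after C2mimCl, 0, 1 and 3 after C12mimCl and 2, 5 and 6 after CholCl, against 457, 389 and 239 in controls. Another gene had 40, 7 and 9 reads after C2mimCl and 2, 4 and 1 after C12mimCl, was listed at 0 reads in the 3 CholCl libraries, and had 159, 110 and 158 reads in controls. A count of 0 allows up to 3 reads at this depth, for counting error only. It was the only falling member with no read in a whole group. A median under 1 CPM was found for 19 falling genes after C2mimCl, 28 after C12mimCl and 40 after CholCl.

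Agreement between vessels was uneven in the falling set. All 9 exposed libraries lay at or under 0.5 of the control median in 24 genes, 8 did so in 51, 7 in 38 and 6 in 3. C2mimCl replicate 1 passed this limit in 57 of the 116 genes, against 102 and 106 for C2mimCl replicates 2 and 3, 93 to 114 for the C12mimCl libraries and 107 to 116 for the CholCl libraries. It was the highest of the C2mimCl libraries in 64.7% of falling genes, and in 46.2% of all genes with a control median of at least 2 CPM. CholCl replicate 3 was the highest CholCl library in 67.2% of falling genes and in 34.3% of all such genes. Control replicate 3 was the lowest control in 57.8% of falling genes and in 41.1% of all such genes, and it lay itself at or under 0.5 of the control median in 25 genes.

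All 9 exposed libraries lay below all 3 controls in 52 falling genes (44.8%), where 1.25% of genes with a control median of at least 2 CPM were separated in this way. The rule used this contrast. Controls themselves differed by 2-fold or more between the highest and lowest library in 67 falling genes (57.8%), against 15.4% of all genes with at least 2 CPM. The median coefficient of variation among controls was 37.3% in the falling set and 17.4% over all such genes. The part of this spread in the membership was not tested.

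Rising genes had to pass 1.5-fold where falling genes had to pass 2-fold. Sizes and spans of the 2 sets, where printed side by side, are therefore not to be read against each other. The median rising member was 1.74-fold above control after C2mimCl, 1.7-fold after C12mimCl and 2.1-fold after CholCl. A median at least 2-fold above control was reached by 19 of the 70 genes after C2mimCl, 13 after C12mimCl and 39 after CholCl, and by 6 after each of the 3 salts. CholCl gave the highest median in 45 genes, C12mimCl in 13 and C2mimCl in 12. The highest and lowest salt medians lay within 2-fold of each other in 61 of the 70 genes and within 1.5-fold in 44.

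Rising genes together took 0.591% ± 0.0362 of gene reads after C2mimCl, 0.653% ± 0.0123 after C12mimCl and 0.788% ± 0.0633 after CholCl, against 0.425% ± 0.0619 in controls (SD, n = 3 each). The controls held 0.37%, 0.413% and 0.492%, and the exposed library nearest to them was C2mimCl replicate 1 at 0.561%. Low control levels were common, with 40 genes (57.1%) under 10 CPM against 32.5% of all genes with at least 2 CPM. These 40 genes had median increases of 1.91-fold after C2mimCl, 1.74-fold after C12mimCl and 2.35-fold after CholCl. The 9 genes with a control median of 100 CPM or more had 1.57-fold, 1.75-fold and 1.69-fold in the same order of salts.

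C12mimCl was the weakest salt for 35 rising genes, whose median increases were 1.86-fold after C2mimCl, 1.59-fold after C12mimCl and 2.43-fold after CholCl. C2mimCl was the weakest for 23 genes, at 1.57-fold, 1.75-fold and 2.03-fold in the same order, and CholCl for 12, at 1.97-fold, 1.84-fold and 1.6-fold.

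Dapma7bEVm002055 had the largest increase after its weakest salt. It had 5.31, 9.93 and 8.26 CPM after C2mimCl, 8.64, 8.09 and 6.15 CPM after C12mimCl and 6.57, 11.4 and 8.86 CPM after CholCl, against 2.53, 1.652 and 4.41 CPM in controls. All exposed libraries lay above all controls, and the 3 salts overlapped each other. These levels rest on 81 to 166 reads in exposed libraries against 25 to 56 in controls. The ratio to control was 3.18 after C2mimCl, 3.12 after C12mimCl and 3.41 after CholCl, and the 3 pairs of salts differed by log2 -0.02 to 0.24, with 95% intervals inside -0.8 to 1.015 (adjusted p 0.58 to 0.98, edgeR). The gene next in this order had 7.14, 10.01 and 10.5 CPM after C2mimCl, 7.7, 2.8 and 9.95 CPM after C12mimCl and 14.99, 10.9 and 13.5 CPM after CholCl, against 2.9, 5.62 and 2.6 CPM in controls. C12mimCl replicate 2 lay within its control range, and the other exposed libraries lay above it. The third had 8.3, 22.2 and 17.4 CPM after C2mimCl, 10.7, 9.68 and 5.01 CPM after C12mimCl and 14.1, 12.3 and 14.4 CPM after CholCl, against 3.82, 2.58 and 5.04 CPM in controls. C12mimCl replicate 3 was the exposed library that reached its controls.

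Dapma7bEVm010508 had the highest control median of the rising set. It had 978, 1565 and 1293 CPM after C2mimCl, 1359, 1394 and 1434 CPM after C12mimCl and 1578, 1185 and 1451 CPM after CholCl, against 761, 859 and 1151 CPM in controls. C2mimCl replicate 1 lay below control replicate 3, and the other exposed libraries lay above all controls. The second gene by control median had 716, 1216 and 954 CPM after C2mimCl, 1042, 1135 and 1111 CPM after C12mimCl and 1500.3, 1040.3 and 1307 CPM after CholCl, against 605, 612 and 989 CPM in controls. C2mimCl replicates 1 and 3 lay below control replicate 3. The third had 342, 555 and 442.5 CPM after C2mimCl, 506, 565 and 499.5 CPM after C12mimCl and 623, 463 and 550.0 CPM after CholCl, against 289, 288 and 407 CPM in controls. In each of these 3 genes control replicate 3 was the highest control and C2mimCl replicate 1 the lowest C2mimCl library.

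**Figure D3:**
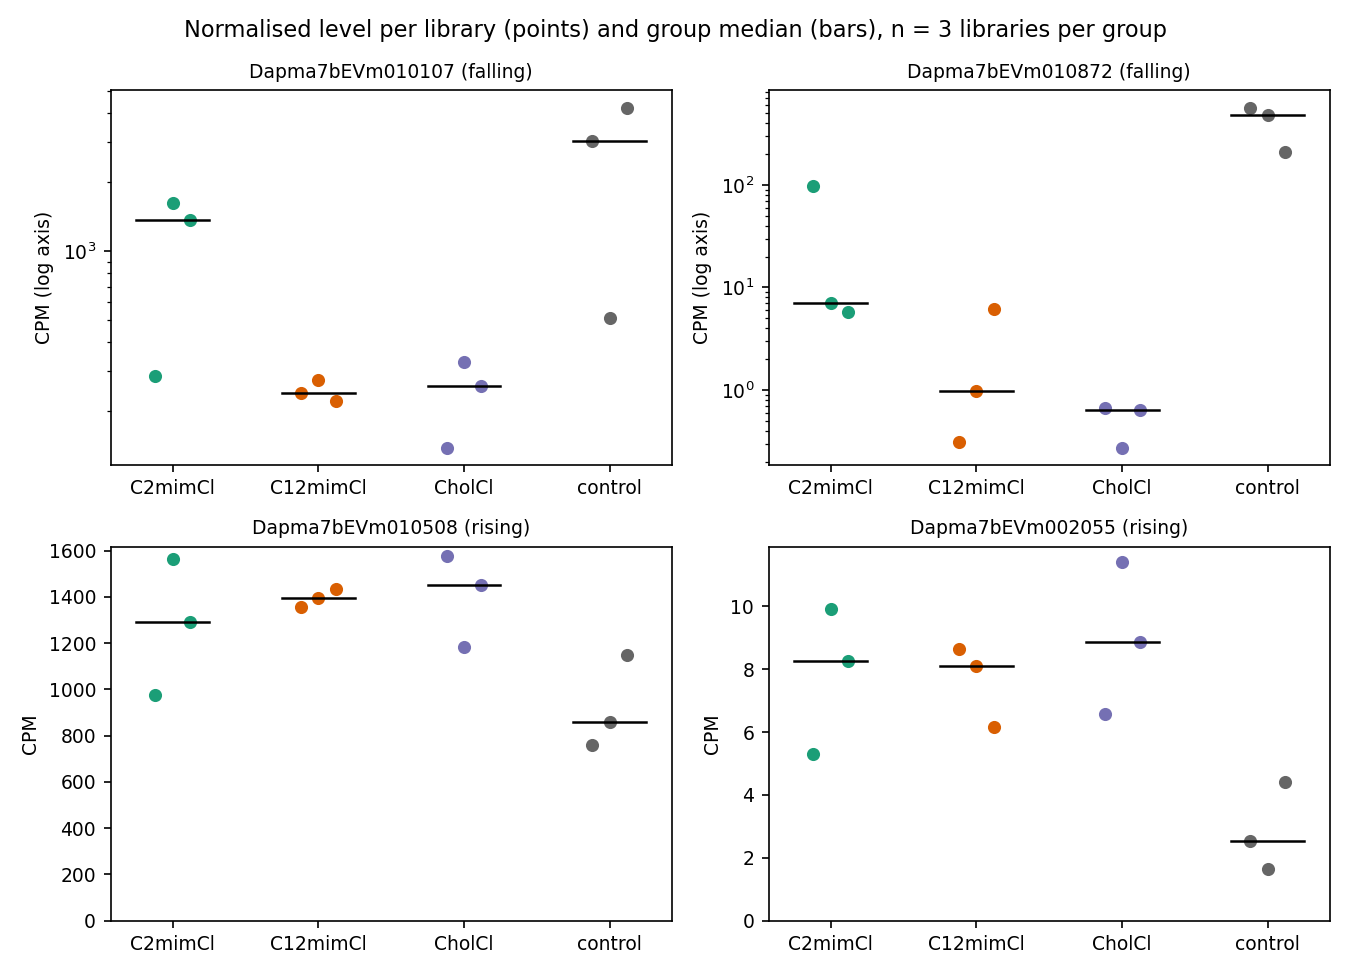
CPM in each library (points, replicates 1 to 3 from left to right) and the group median (short lines) for the 2 falling genes (top, log axis) and the 2 rising genes (bottom, axis from 0) given by identifier. The exposed libraries of Dapma7bEVm010872 and Dapma7bEVm002055 lie apart from the controls, whereas those of Dapma7bEVm010107 (509.7 CPM in control replicate 2) and Dapma7bEVm010508 overlap them.

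The same 2 libraries stood out in the rising set as in the falling set. C2mimCl replicate 1 reached 1.5 times the control median in 36 of the 70 genes, against 67 and 64 for C2mimCl replicates 2 and 3, 54 to 65 for the C12mimCl libraries and 57 to 69 for the CholCl libraries. It lay within or below the control range in 28 genes. Control replicate 3 was the highest control in 60% of rising genes and in 41.4% of all genes with a control median of at least 2 CPM. CholCl replicate 2 was the lowest CholCl library in 77.1% of rising genes, against 36.1% of all such genes. All 9 exposed libraries passed the limit in 12 genes, and all lay above the 3 controls in 26 genes (37.1%), where 1.33% of genes with at least 2 CPM were so separated. The rule used this contrast.

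Against control, the quasi-likelihood test of edgeR, with p-values adjusted by Benjamini-Hochberg over 15847 genes and called below 0.05, gave 16 falling members lower after C2mimCl, 63 after C12mimCl and 90 after CholCl, where 0.656%, 21.5% and 22.4% of all genes tested were called lower and 1.43%, 35.3% and 38.3% in either direction. Of the rising members 11 were called higher after C2mimCl, 38 after C12mimCl and 58 after CholCl, where 0.776%, 13.8% and 15.9% of all genes were called higher. All 186 members passed the filter on low counts. The rule used these contrasts, and nothing is read from the counts.

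The C2mimCl counts depended on the tool and on single libraries. With DESeq2 they were 42 falling and 29 rising members. For the falling set the count was 63 without C2mimCl replicate 1 and 4 without either of the others, 3, 4 and 7 when control replicate 1, 2 or 3 was left out, 8 and 10 without C12mimCl replicates 1 and 3, and 9 and 10 without CholCl replicates 2 and 3. For the rising set it was 36, 4 and 3 when C2mimCl replicate 1, 2 or 3 was left out, 1, 1 and 6 when control replicate 1, 2 or 3 was, 6 without C12mimCl replicate 1, and 7 and 6 without CholCl replicates 2 and 3. The C12mimCl count for the rising set was 17 or 25 when control replicate 1 or 2 was left out and 21 or 25 when C12mimCl replicate 1 or 3 was, and the CholCl count was 35 without control replicate 1 and 36 without CholCl replicate 1. In 7 falling genes the fitted group mean after C2mimCl was above that of control although the median was below; the fit estimates means over 3 libraries.

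The 3 pairs of salts were then compared directly. These differences were not used by the rule, although the same libraries were, and the choice of genes with a common direction limits how far apart 2 salts can lie on the side of control. That limit can also favour 1 sign of a difference, which does not apply to the shares over all genes. The part of the rule in the counts below was not tested. C12mimCl against C2mimCl asks what the longer alkyl chain goes with at a matched effect level. In the falling set 33 genes (28.4%) were lower and 3 (2.59%) higher after C12mimCl than after C2mimCl at an adjusted p below 0.05 (edgeR). Over all genes tested 24.7% were called lower and 20.4% higher. The 36 calls were 31% of the set, against 45.1% of all genes, and the median log2 difference was -0.65 in the set and 0.002 over all genes. Without C2mimCl replicate 1 the calls were 32 lower and 14 higher, and with the percentage of reads in no gene in the fit, a setting added after the data were seen, 49 lower and 13 higher, of which 32 were among the 36. Without any other single library 1 to 3 were higher.

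The falling gene with the smallest p for this pair also had it for CholCl against C2mimCl. It had 42.9, 24.98 and 26.3 CPM after C2mimCl, 0.757, 0.605 and 0.76 CPM after C12mimCl and 0.812, 1.101 and 1.28 CPM after CholCl, against 70.3, 60.6 and 57.8 CPM in controls. C12mimCl and CholCl left it near 1 CPM while C2mimCl left it near 0.435 of control. The log2 difference was -5.43 (SE 0.268, adjusted p = 8.1e-06) for C12mimCl against C2mimCl and -4.85 (SE 0.257, adjusted p = 1.4e-05) for CholCl against C2mimCl in the edgeR fit.

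In the rising set 1 gene was higher and 1 lower after C12mimCl than after C2mimCl, or 2.86% of the set, against 45.1% of all genes in either direction. With upper-quartile scaling, under which the median log2 value over all genes tested is 0.167 in place of 0.002, 4 were higher and 1 lower. Without C2mimCl replicate 1, 1 was higher and 6 lower. Leaving out control replicate 2 or 3 gave 5 or 4 calls, and with the percentage of reads in no gene in the fit 6 were higher and 2 lower, with 0 of the 2 genes above among them. The 95% interval stayed inside a 2-fold difference in 53 of the 70 rising genes and 2 of the 116 falling genes. Over all 15847 genes tested it did so in 5988. For genes not called, the median distance from the estimate to the end of the interval was 0.53 on the log2 scale in the rising set and 1.72 in the falling set. In the falling set a missing call therefore does not show that the salts act alike.

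The rising gene with the smallest p for this pair had 30.5, 34.9 and 32.5 CPM after C12mimCl and 55.1, 174 and 146.5 CPM after C2mimCl, with 933, 765 and 764 CPM after CholCl and 17.0, 17.2 and 33.3 CPM in controls. It was the rising gene furthest above control after CholCl, at 44.3 times the control median. Its log2 difference between C12mimCl and C2mimCl was -1.92 (SE 0.397, adjusted p = 0.0033, edgeR), and the call was lost when the percentage of reads in no gene entered the fit, at -0.6 (adjusted p = 0.44, edgeR).

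CholCl against C2mimCl gave 42 falling genes lower after CholCl, or 36.2% of the set, where 17.6% of all genes tested were called lower. The median log2 difference was -1.87 in the falling set and -0.07 over all genes. The estimate was below 0 in 110 of the 116 genes, and in 8560 of all 15847 genes tested. Because the rule capped both salts on the side of control, its part in this sign was not tested. The count was 24 and 26 without CholCl replicates 1 and 2. In the rising set 14 genes (20%) were higher and 1 (1.43%) lower after CholCl. Over all genes tested 11.6% were called higher and 17.6% lower. The count of 15, or 21.4% against 29.2% of all genes in either direction, became 7 and 9 without CholCl replicates 1 and 3. With the 6 libraries of this pair alone, 25 falling and 6 rising genes were called. The interval stayed within 2-fold in 42 rising and 3 falling genes, and in 6747 of all 15847 genes tested.

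In CholCl against C12mimCl, calls among the falling genes went both ways, at shares no higher than those over all genes. After CholCl 30 (25.9%) were lower and 13 (11.2%) higher than after C12mimCl. Over all genes tested 29.6% were called lower and 27.7% higher. The median log2 difference in the falling set was -0.9. The count of 43, or 37.1% against 57.3% of all genes, became 15 lower and 13 higher without CholCl replicate 1, 17 lower and 12 higher without CholCl replicate 2, 27 lower and 7 higher without CholCl replicate 3, 25 lower and 7 higher without C12mimCl replicate 1, and 18 lower and 8 higher with limma-voom. The falling gene with the smallest p had 12.997, 11.35 and 12.77 CPM after CholCl and 1.26, 0.756 and 1.14 CPM after C12mimCl, with 10.9, 18.7 and 12.98 CPM after C2mimCl and 31.6, 26.9 and 24.9 CPM in controls. CholCl and C2mimCl overlapped in this gene, and C12mimCl lay below both. Its log2 difference was 3.54 (SE 0.254, adjusted p = 8.6e-06) for CholCl against C12mimCl and -0.17 for CholCl against C2mimCl, with a 95% interval of -0.65 to 0.3 (edgeR).

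In the rising set 19 genes (27.1%) were higher and 2 (2.86%) lower after CholCl than after C12mimCl. Over all genes tested 27.7% were called higher and 29.6% lower. The count of 21 became 2 when the percentage of reads in no gene entered the fit. That percentage was higher in every C12mimCl library than in any CholCl library. In that fit its part and that of the salt cannot be cleanly told apart. The interval stayed within 2-fold in 38 of the 70 genes, and in 4803 of all 15847 genes tested. The rising gene with the smallest p for both CholCl pairs had 32.3, 25.9 and 23.9 CPM after CholCl, 3.3, 4.38 and 3.71 CPM after C2mimCl and 3.91, 3.86 and 4.63 CPM after C12mimCl, against 2.28, 1.45 and 2.995 CPM in controls. The imidazolium salts overlapped, and CholCl lay far above both. The log2 difference was 2.87 (SE 0.249, adjusted p = 0.00012) from C2mimCl and 2.73 (SE 0.246, adjusted p = 2e-05) from C12mimCl in the edgeR fit. Over the 3 pairs, 50 of the 116 falling and 48 of the 70 rising genes were called in none (43.1% and 68.6%, against 29.2% of all genes tested), and 10 falling genes and 1 rising gene in all 3 (8.62% and 1.43%, against 9.17%).

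**Figure D4:**
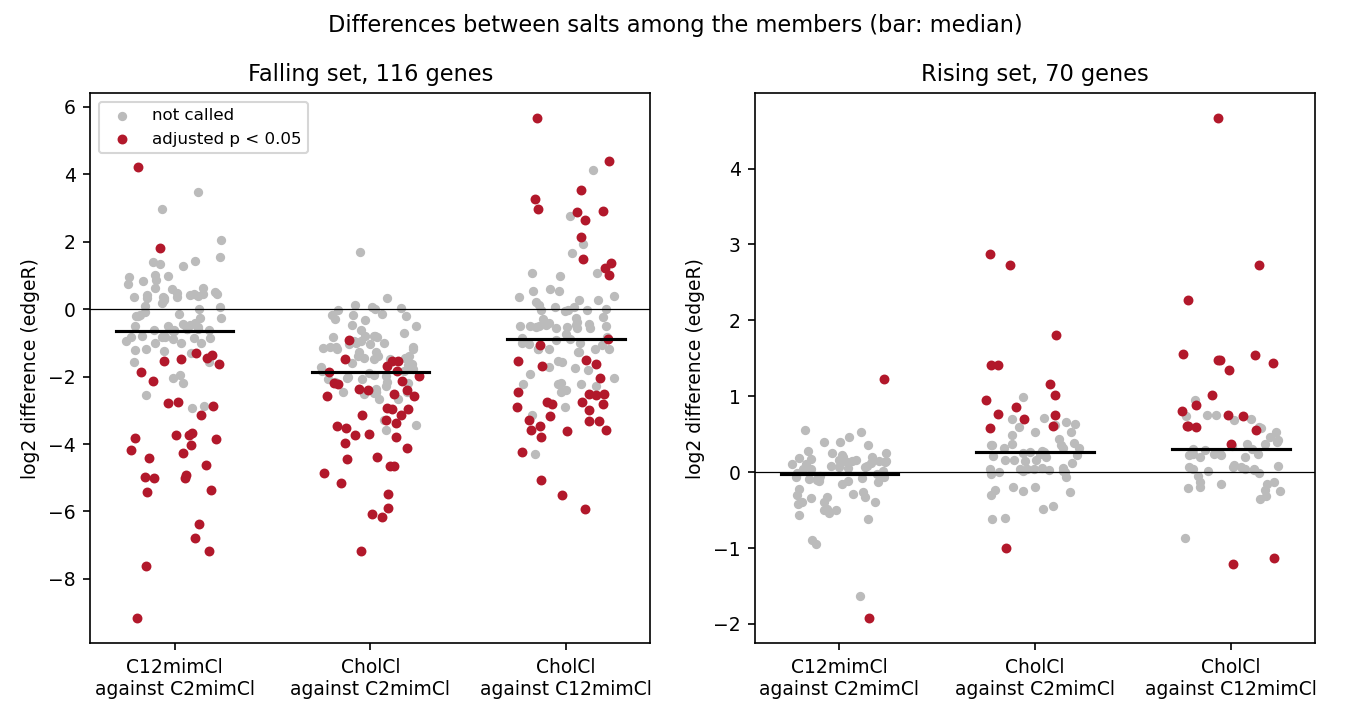
Log2 differences between salts from edgeR for the falling set (left) and the rising set (right), with 1 point per gene, red where the adjusted p was below 0.05, and a bar at the median. The falling set centres at -0.65, -1.87 and -0.9 for the 3 pairs from left to right, and the rising set at -0.02, 0.27 and 0.31.

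Membership also depended on single vessels, each median being the middle of 3 values. Leaving out 1 library at a time gave 91 to 131 falling and 29 to 105 rising genes. Without control replicate 1 the rising set had 29 genes, of which 20 were among the 70, and without control replicate 3 it had 105, of which 56 were. The falling set without control replicates 1, 2 and 3 had 131, 130 and 127 genes, of which 91, 91 and 93 were among the 116. Without C2mimCl replicates 2 and 3 it kept 74 and 76 of its genes, where replicate 1 entered each C2mimCl median with equal weight. CholCl libraries mattered least for the falling set, with 111, 113 and 115 of the 116 genes kept.

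A smaller set met the rule in all 12 of these cases, namely 38 of the 116 falling genes (32.8%) and 11 of the 70 rising genes (15.7%). The 38 falling genes had median falls of 7.74-fold after C2mimCl, 9.45-fold after C12mimCl and 28-fold after CholCl, and control medians from 3.37 to 1060 CPM. All 9 exposed libraries lay below all controls in 30 of them. Meeting the rule in every case favours genes far from its limits. Larger changes and clearer separation are thus favoured by this choice in both sets, and the values are a description. The 11 rising genes had median increases of 2.58-fold, 2.09-fold and 3.62-fold in the same order of salts, and control medians of 2.34 to 8.0 CPM, so no rising gene with a higher control median met the rule in every case. Dapma7bEVm010872 and Dapma7bEVm002055 were in this smaller set, and Dapma7bEVm010107 and Dapma7bEVm010508 were not.

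**Figure D5:**
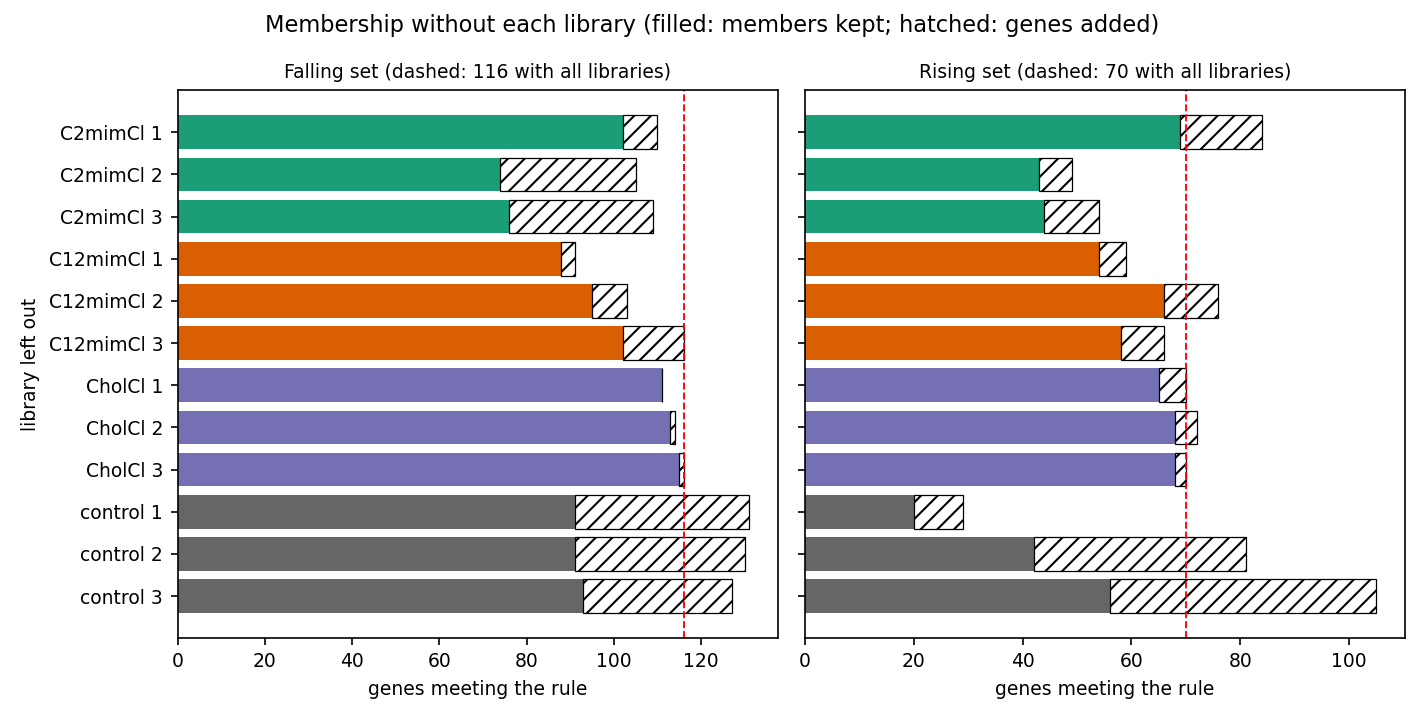
Number of genes meeting the rule when the library on the y axis was left out, for the falling set (left) and the rising set (right), with members kept (filled) and genes added (hatched). The dashed lines mark 116 and 70 genes with all libraries, and the rising set ranges from 29 genes without control replicate 1 to 105 without control replicate 3.

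Many genes sat close to the thresholds. The 2 falling members nearest to the limit had a ratio after their weakest salt of 0.4998 and 0.4989, and the 2 nearest genes outside had 0.501 and 0.5013. In the rising set the nearest members had 1.5 and 1.502, and the nearest genes outside 1.499 and 1.497. Within 10% of the limit lay 32 genes inside and 40 outside for the falling set, and 44 inside and 121 outside for the rising set.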

How the data were processed

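mRNA of 12 pools of whole animals was sequenced as 150 bp paired-end reads from a stranded kit, per the labels' protocols. The deposited files hold raw counts of reads per gene; the submitters' processing notes name Trimmomatic 0.39, STAR 2.7.3a and HTSeq. Genome build, annotation and strand setting: not given in the sources used here. Overlapping, antisense or near-identical genes therefore have uncertain counts. Rows that name no gene were left out of totals and of every test. Reads in no gene were 5.25% to 10.1% of a library (95% Wilson intervals within 0.0144 percentage points) and reads with no unique position 7.79% to 10.04%.

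In R 4.3.3 the rule was applied to 20266 rows with at least 10 reads. Tests used edgeR 4.0.16 on the deposited counts, with its expression filter (minimum count 10, minimum total 15), TMM factors and 1 robust quasi-likelihood fit of 4 group means over 12 libraries. P-values were adjusted over all 15847 genes tested in each contrast, and intervals are 95% from the fit. Replicates are separate vessels, and each was counted as 1 replicate. The closest replicate pair differed by a chi-square of 15.9 per degree of freedom. That is a spread beyond counting error, which does not by itself show that vessels are independent. Alternatives were RLE and upper-quartile scaling, other filters and medians, DESeq2 1.42.0, limma-voom (limma 3.58.1), fits of 6 libraries, a replicate block, a covariate added after the data were seen, and leaving out each library. Members and lists were chosen with earlier results of these data known. Named genes were the first in each set by control median and by change after the weakest salt, and others described were next in those orders or had the smallest p for a pair of salts. The gene with no CholCl reads, and the summaries by profile and level, were chosen after their values were seen.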

Additional observations from a re-analysis of the deposited data

Results flagged for a closer look

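Some members differed between salts by a test of the difference itself (edgeR's quasi-likelihood test, 12 libraries). Listed here are only those with the smallest p in each set and pair of salts. In the falling set 1 gene had log2 differences of -5.43 for C12mimCl against C2mimCl and -4.85 for CholCl against C2mimCl, and another had 3.54 for CholCl against C12mimCl. In the rising set 1 gene had -1.92 for C12mimCl against C2mimCl, and another had 2.87 for CholCl against C2mimCl and 2.73 for CholCl against C12mimCl. These genes were picked as the smallest p among the members. The call at -1.92 was lost with the percentage of reads in no gene in the fit (-0.6, adjusted p = 0.44, edgeR).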

How the results depend on the processing

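The membership counts were moved by over 1.5 times by group means in place of medians (74 falling and 40 rising genes, 64 and 30 of them members), by upper-quartile scaling for the rising set (152, with 68 members), by a control median of at least 5 CPM for the rising set (44), and, added after the data were seen, by leaving out both C2mimCl replicate 1 and control replicate 3 for the rising set (136, with 56 members). Single libraries left out gave 91 to 131 falling and 29 to 105 rising genes.

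Between salts, the rising count for C12mimCl against C2mimCl was 5 with upper-quartile scaling, with DESeq2 and with limma-voom, and 8 with the percentage of reads in no gene in the fit, which gave 62 falling calls. For CholCl against C2mimCl it was 23 rising with upper-quartile scaling, and 25 falling and 6 rising with the 6 libraries alone. For CholCl against C12mimCl it was 26 falling with limma-voom and 2 rising with that percentage in the fit. That percentage was higher in every C12mimCl library than in any C2mimCl or CholCl library. It was lower in every CholCl library than in any control or, by a small margin, any C2mimCl library. Fits with it therefore do not cleanly separate it from C12mimCl or CholCl. Leaving out single libraries gave 32 to 46 falling and 2 to 7 rising calls for C12mimCl against C2mimCl, 24 to 45 and 7 to 16 for CholCl against C2mimCl, and 28 to 55 and 14 to 25 for CholCl against C12mimCl.

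Against control, C2mimCl calls were 42 falling and 29 rising with DESeq2 and 26 falling with limma-voom. Leaving out single libraries gave 3 to 63 falling and 1 to 36 rising calls after C2mimCl, 45 to 76 and 17 to 52 after C12mimCl, and 68 to 106 and 35 to 62 after CholCl. The causes were not tested. Of 14 single-gene values recomputed (4 weakest-salt ratios and 10 called pair differences), 1 changed sign in 280 alternatives, the C12mimCl against C2mimCl difference of Dapma7bEVm010107, at 0.49 with the percentage of reads in no gene in the fit. Other single-gene values were not recomputed.

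Whether replicate numbers pair the vessels was not settled. Deviations of same-numbered libraries of 2 salts correlated at -0.285 to 0.398 over 9 pairs, and in 5 of the 9 the libraries correlated best with their own number. Replicate 3 did so for every pair of salts (0.398, 0.212 and 0.274), and replicates 1 and 2 for some pairs only. Controls were not part of this check. With the replicate number as a block, the rising count after C2mimCl was 7, and the other counts stayed within 1.5 times, such as 37, 38 and 47 falling calls for the 3 pairs of salts. A median under 1 CPM after CholCl was found for 40 falling genes, and the part of depth in these results was not tested.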
